A study of Mus musculus with 9 samples.

Results

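The 87 miRNAs described here are those with the numbers from 1000 upward, late entries in the mouse miRNA registry, that were detected in hippocampus. They were chosen by 2 criteria: a name of miR-1000 or above, apart from miR-1193, miR-1197, miR-1298, miR-1983 and miR-3070 to miR-3072, and a detection call on all 3 arrays of at least 1 group. Of the 435 miRNAs on the array that met the criterion on the name, 87 met the criterion on detection, and they were 20.5% of the 424 miRNAs tested. The array carried 1247 mouse miRNAs in all. Because the members were selected on measured detection values, their levels are a description, and the comparison with undetected miRNAs carries no test.

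The study asked how fine particulate matter (PM2.5, airborne particles small enough to reach the lung) acts on the hippocampus, and total RNA of this region was hybridized to Agilent mouse miRNA arrays (version 19), which read the fluorescence of labelled small RNA on short DNA probes. All mice were male C57BL/6, about 8 weeks old at the start, and were treated by oropharyngeal aspiration on alternate days over 4 weeks. The control group (n = 3) received saline, the next (n = 3) PM2.5 at 1 mg/kg body weight (the low dose), and the last (n = 3) PM2.5 at 5 mg/kg body weight (the high dose), with 1 array per sample. The labels name no genetic change in any group, and the study describes the control and high-dose samples as single mice. Whether the low-dose samples were also single mice is not given in the sources used here, so their spread may be technical.

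Between 410 and 436 miRNAs were detected per array, no spot was saturated, and the 4 brain markers miR-124-3p, miR-9-5p, miR-9-3p and miR-128-3p were detected on all 9 arrays. The arrays lay in 2 rows of 2 slides. All 3 control arrays and low-dose replicate 1 were in row 1 of slide 1, low-dose replicates 2 and 3 and high-dose replicates 1 and 2 were in row 2 of it, and high-dose replicate 3 was in row 1 of slide 2. Levels are given as the log2 signal relative to the 75th percentile of the miRNAs detected on all arrays. They are signals of different probes, so their order is not an order of molecule numbers.

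A mature miRNA is a short RNA that Drosha and Dicer cut out of a hairpin and that guides Argonaute proteins to messenger RNAs, which it recognizes mainly through its seed, bases 2 to 8 from the 5′ end. The early entries of the registry came largely from cloning and conservation. Later entries came largely from deep sequencing of small RNA, which also reads fragments of tRNA, rRNA, small nucleolar RNA and repeats, and a number of such entries were later withdrawn or placed under question. The hippocampus is known for abundant miR-124, miR-9, miR-128 and let-7, none of which is a late entry.

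The mature sequences of 64 of the 87 members were found in the RefSeq tables (GRCm38.p6), and those on which the results below turn are shown 5′ to 3′ with the seed in capitals. They comprise the members with the most signal, those that co-varied, and those that differed between groups.
miR-6366: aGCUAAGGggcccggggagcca
miR-3963: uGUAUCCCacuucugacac
miR-3968: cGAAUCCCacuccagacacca
miR-5100: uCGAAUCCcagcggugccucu
miR-6412: uCGAAACCauccucagcuacua
miR-1224-5p: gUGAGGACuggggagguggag
miR-3473a: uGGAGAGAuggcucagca
miR-3473b: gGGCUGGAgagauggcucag
miR-3473e: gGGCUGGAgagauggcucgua
miR-5128: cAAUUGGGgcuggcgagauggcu
miR-3474: cCCUGGGAggagacguggauuc
miR-5119: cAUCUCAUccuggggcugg
miR-3962: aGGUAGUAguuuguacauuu
miR-1187: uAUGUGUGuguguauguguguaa
miR-3082-5p: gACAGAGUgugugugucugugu
miR-1904: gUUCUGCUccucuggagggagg
miR-3058-5p: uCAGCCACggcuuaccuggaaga
Among the tested miRNAs in the tables, miR-3473b and miR-3473e were the only members that shared a seed with another. The members not in the tables were miR-1196-3p, miR-1196-5p, miR-1839-3p, miR-1897-5p, miR-1927, miR-1949, miR-1971, miR-3096b-3p, miR-3107-5p, miR-3470a, miR-3475, miR-3960, miR-5097, miR-5099, miR-5105, miR-5107-5p, miR-5109, miR-5112, miR-5117-3p, miR-6243, miR-6360, miR-6378 and miR-6407.

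A few members held a large share of all the signal. The 87 members carried between 36.9% and 43.4% of the summed signal of the tested miRNAs on each array, and miR-6366 alone carried between 21.5% and 26.5%. miR-6366 had the highest signal of the 424 tested miRNAs and miR-3963 the second highest, ahead of miR-128-3p, miR-29a-3p and miR-124-3p. They kept these places under the 8 other ways of summarizing and scaling the signal, the deposited log2 table included. miR-6366 lies at chr16:18165093-18165114 on the minus strand, outside any other annotated gene, and miR-3963 at chr3:151023839-151023857 on the minus strand, also outside any other gene.

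In the control group miR-6366 had log2 signals of 8.33, 8.42 and 8.61. It had 8.58, 8.45 and 8.36 at the low dose and 8.52, 8.52 and 8.45 at the high dose. The 3 groups overlapped, and the change was 0.00 at the low dose (standard error 0.09, unadjusted p = 0.964 in limma) and 0.04 at the high dose (standard error 0.09, unadjusted p = 0.682 in limma). miR-3963 had 7.23, 7.08 and 7.36 in the control group, 7.34, 7.15 and 7.04 at the low dose, and 7.19, 7.23 and 7.21 at the high dose, again with overlap between all groups.

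The next members in the order of signal were miR-3968 with a control mean of 4.14 ± 0.17 (SD, n = 3), miR-6243 with 3.74 ± 0.24, miR-5109 with 3.56 ± 0.25 and miR-5100 with 3.24 ± 0.45. miR-5097 followed with 1.63 ± 0.39 and miR-3473b with 1.55 ± 0.21. After them the signal dropped. Only 13 of the 87 members had a control mean above 0, that is above the 75th percentile, and 42 (48.3%) lay below -3, against 84 and 123 (36.5%) of the 337 other tested miRNAs. The median control mean was -2.95 over the members and -1.96 over the others. The spread between replicates was alike in both sets, with a median SD within groups of 0.14.

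**Figure D1:**
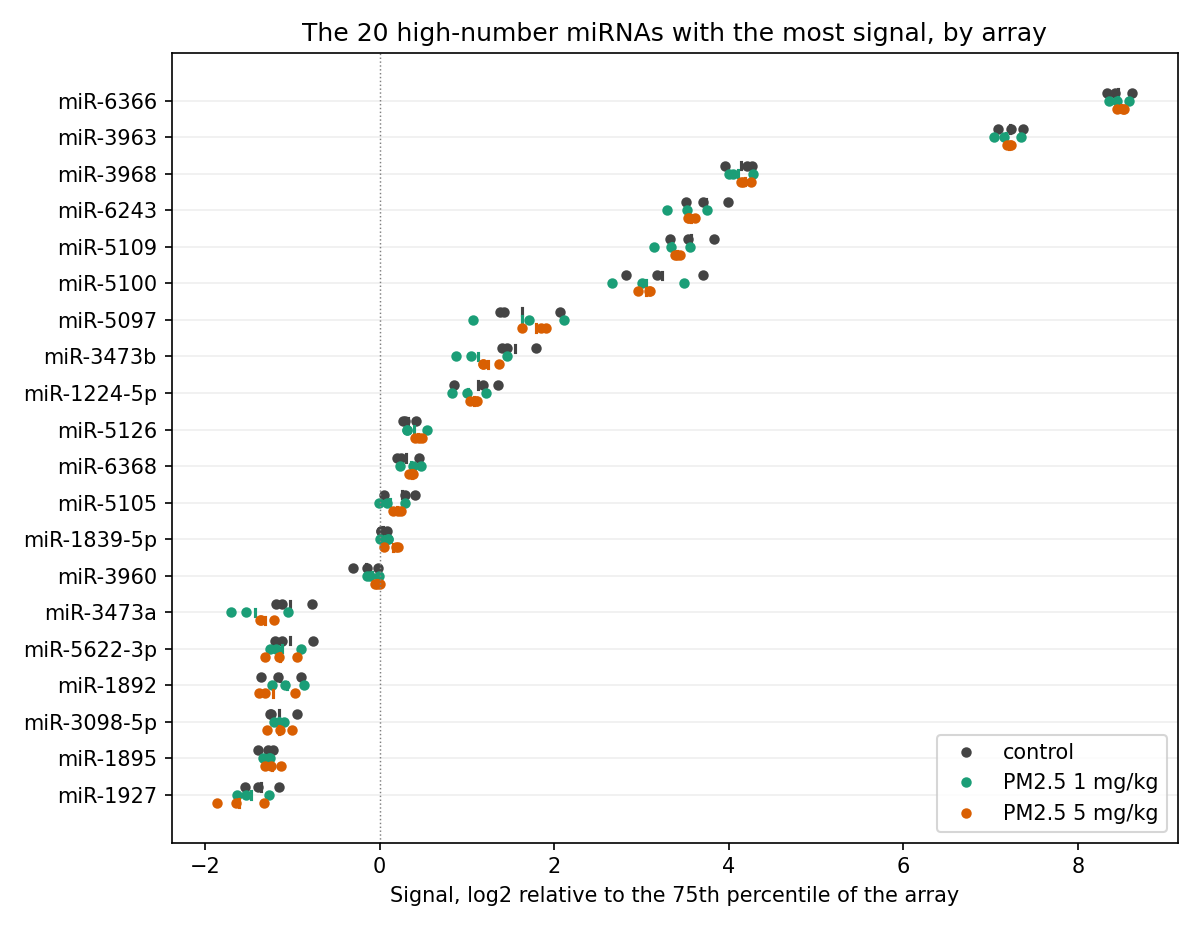
log2 signal relative to the 75th percentile of the array (x axis) for the 20 members with the highest control mean (y axis), with 1 point per array, coloured by group, and a short line at each group mean (n = 3). miR-6366 and miR-3963 stand apart on the right, and the groups overlap for most miRNAs shown. Signals of different miRNAs come from different probes.

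At the other end, the lowest control means were those of miR-5132-5p at -5.85, miR-5099 at -5.60 and miR-6418-5p at -5.36. Of the members, 82 were detected on all 9 arrays. The other 5 were miR-3092-3p (6 arrays, including all 3 at the high dose), miR-6407 (7 arrays, including all 3 at the low dose), and miR-3085-3p, miR-5099 and miR-5132-5p (8 arrays each). Just outside the criterion lay 8 miRNAs that were detected on at least 1 array. miR-6540-5p was detected on 5 arrays, miR-1940 and miR-1981-5p on 4, miR-1264-5p, miR-3106-5p and miR-5117-5p on 2, and miR-3110-3p and miR-5131 on 1. Their mean signals ran from 6.59 units for miR-1981-5p to 15.2 units for miR-1940, and those of the 5 members with a missing call from 8.88 units for miR-5132-5p to 19.9 units for miR-3085-3p.

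The detected members were read by short probes rich in G and C. Agilent sets the length of a probe so that probes melt alike, and a stretch rich in G and C therefore gets a shorter probe. The longest probe of a member read a median of 15 bases, with a range of 10 to 20, against 18 bases in the other tested miRNAs and 16 in the 348 late entries that were not tested. It read 14 bases or fewer in 39 members (44.8%), in 40 of the other tested miRNAs (11.9%) and in 69 of the untested late entries (19.8%). The median share of G and C in that stretch was 64.3% in the members, 50% in the other tested miRNAs and 53.3% in the untested late entries. A member had 2 probes in 82 cases, 3 in 4 cases and 4 in 1 case.

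Detection followed G and C content among the late entries, with no such order among the miRNAs numbered under 1000 and let-7. Of the late entries with up to 50% G and C, 20 of 167 (11.98%) were detected. This share was 23 of 143 (16.1%) over 50% to 60%, 18 of 63 (28.6%) over 60% to 70%, and 26 of 62 (41.9%) over 70%. In the earlier miRNAs the shares were 41.7%, 39.0%, 45.8% and 43.3% in the same order. By length, 36.1% of the late entries with a longest probe of at most 14 bases were detected and 11.7% of those with more than 17, while in the earlier miRNAs these shares were 38.6% and 45.8%. Probe length and G and C content go together by design, so the part of each cannot be told apart here.

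**Figure D2:**
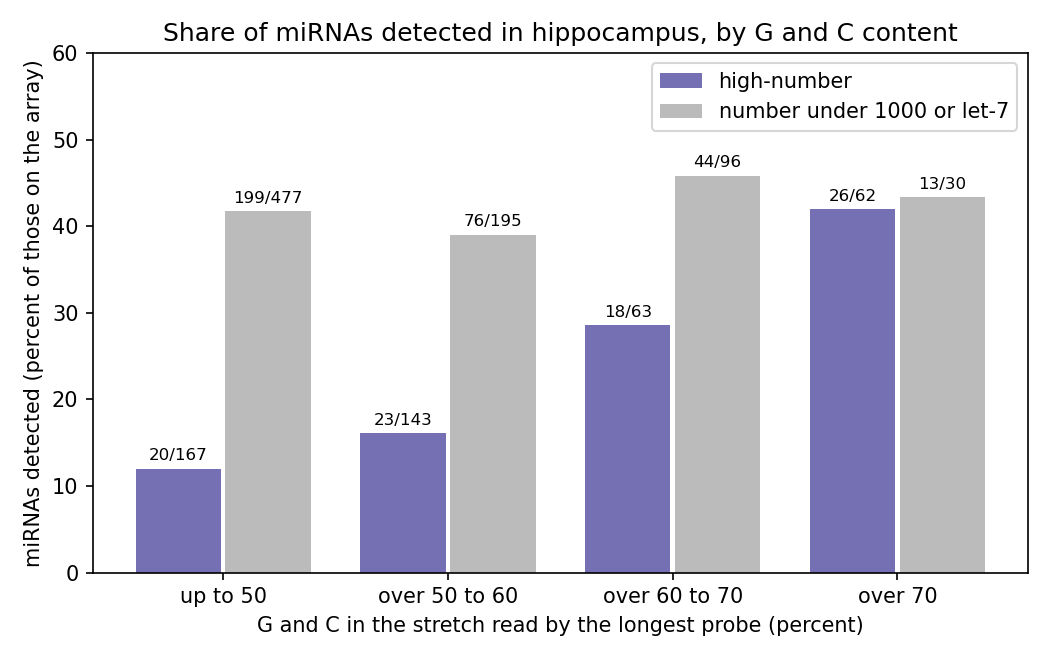
Percent of miRNAs on the array that were detected on all 3 arrays of a group (y axis), by the percent of G and C in the stretch read by the longest probe (x axis), for late entries and for miRNAs numbered under 1000 with let-7; the numbers over the bars are detected miRNAs of those on the array. The share rises from 11.98% to 41.9% over the late entries and stays between 39.0% and 45.8% in the earlier ones.

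Some members shared letters that few other miRNAs held. The letters were chosen with tRNA in mind, since a mature tRNA ends in CCA and has a T arm with conserved letters. They were also chosen after values of these members were seen, so the counts are a description and no test. The letters CGAANCC, with N for any base, occurred on the plus strand in 3 of the 64 members with a sequence (miR-5100, miR-3968 and miR-6412), in 0 of the 284 other tested miRNAs with one, and in 4 of the 1679 mature sequences of the tables (0.238%). The letters AUCCCA, which overlap the first motif in miR-3968 and miR-5100, occurred in these members and miR-3963, in 1 other tested miRNA and in 7 of the 1679 sequences (0.417%). miR-3968 and miR-6366 end in CCA, as do 23 of the 1679 sequences (1.37%). The run of 9 bases shared by miR-3968 and miR-5100 is shown in capitals.
miR-3968: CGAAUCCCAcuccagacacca
miR-5100: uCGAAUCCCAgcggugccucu
No tRNA sequences were searched, so whether these letters come from a tRNA was not tested. miR-3968 lies at chr11:115447969-115447989 on the minus strand within the span of Trim80, and miR-5100 at chr11:60728698-60728718 on the plus strand within that of Mief2.

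Among the members with a position, 3 of 64 (4.69%) overlapped an annotated small nucleolar or Cajal body RNA, and 2 of 284 other tested miRNAs (0.704%) did. These RNAs guide chemical modification of rRNA and spliceosomal RNA. miR-5121 lies in Snord33 within Rpl13a (chr7:45126925-45126945), miR-3069-3p in Scarna13 within Snhg10 (chr12:105031078-105031099) and miR-1843a-5p in Scarna3b within Dcaf5 (chr12:80391654-80391674), all 3 on the minus strand. Their log2 changes passed an unadjusted p under 0.05 at neither dose. The span of a protein-coding gene held 45 of the 64 (70.3%), against 149 of 284 (52.5%). Among them are miR-1224-5p in Vwa5b2, a known mirtron, that is a hairpin made by splicing in place of Drosha, and miR-1306-3p in Dgcr8, the gene of the partner of Drosha. The tables hold spans of genes and no exons.

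miR-3473b and miR-3473a were found in more promoters than the other tested miRNAs, though in a small share of all. Of 32851 RefSeq promoter windows (250 bases before to 50 after a start), 32 (0.0974%) held the whole of miR-3473b on either strand and 9 (0.0274%) the whole of miR-3473a. miR-3473e was in 0, and each other tested miRNA with a sequence was in at most 2. As background, the mouse B2 element, a short interspersed repeat that RNA polymerase III transcribes and that is related to tRNA, begins with letters of this kind. No repeat annotation was searched. The run of 16 bases that miR-3473a shares with miR-3473b is shown in capitals.
miR-3473a: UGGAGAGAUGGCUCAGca
miR-3473b: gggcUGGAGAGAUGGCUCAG
The longest probe of miR-3473b reads 16 bases, all of them within miR-3473a, so the signals of this pair are not independent.

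miR-3962 resembles let-7g-5p, an abundant miRNA of the brain. The 17 bases they share are in capitals, and they fall within the 20 bases that the longest probe of miR-3962 reads.
miR-3962: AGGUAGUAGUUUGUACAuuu
let-7g-5p: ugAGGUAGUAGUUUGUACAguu
After removal of the group means, the log2 signals of miR-3962 and let-7g-5p had a correlation of 0.90 over the 9 arrays. It was 0.99 without scaling of the arrays and 0.63 with quantile normalization. miR-1927, for which no sequence was found, correlated with let-7g-5p at 0.94, at 0.95 without scaling and at 0.82 with quantile normalization. The part of the shared bases in the correlation was not tested.

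In 38 members the name gives the arm of the hairpin, and they came from 32 hairpins. More than 1 arm was a member in 5 of the hairpins. Of the 31 hairpins with both arms on the array, 26 had 1 detected arm and 5 had more than 1. Among the other tested miRNAs 65 of 205 such hairpins had both arms tested. The 2 arms of a hairpin are cut from 1 precursor, and 1 of them usually stays in Argonaute. After removal of the group means, the arms correlated over the 9 arrays with r = 0.71 for miR-1897, 0.47 for miR-1196, -0.25 for miR-1839 and -0.34 for miR-3068. The 3 products of miR-3102, a hairpin in Arhgef17 that also gives miR-3102-5p.2-5p, correlated with r from 0.44 to 0.73. Without scaling the arm pairs had r from 0.45 to 0.84, so the negative values depend on the scaling. In the 5 hairpins with more than 1 arm among the members, no arm passed an unadjusted p under 0.05 at either dose in limma.

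From replicate to replicate the members varied together more than the other miRNAs did. After removal of the group means, the median correlation over the 3741 pairs of members was 0.26 (quartiles -0.10 and 0.63), and it was 0.01 (quartiles -0.47 and 0.48) over the pairs of the other tested miRNAs. All of these correlations rest on the same 9 arrays and share their scaling factors, so no p-value is given. Without scaling the medians were 0.44 and 0.40, and with quantile normalization they were 0.16 and 0.003. The size of the contrast between the sets thus depends largely on the scaling.

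Within the members, 3 blocks stood out when the correlations were examined, and their members were picked after the values were seen. The first block held miR-6366, miR-5097, miR-5100, miR-3963, miR-3968 and miR-6412, with r from 0.53 to 0.98 over 15 pairs. It includes all members with the CGAANCC or AUCCCA letters, but these letters too were chosen after values were seen. The log2 signals of the block are described next. In these members the log2 signals were highest in control replicate 3 and low-dose replicate 1. In miR-5100 they were 3.18, 2.82 and 3.71 in the control group, 3.49, 3.01 and 2.67 at the low dose, and 3.10, 2.96 and 3.08 at the high dose. Without scaling, r in this block ran from -0.06 to 0.95 with a median of 0.29, but miR-3963 with miR-3968 stayed at 0.92. The high correlations were not confined to these letters. miR-1187, which holds neither motif, correlated with the members of the block at r from 0.71 to 0.91, and from 0.39 to 0.65 without scaling. For miR-574-5p, which is not a late entry, r ran from 0.64 to 0.99, and from -0.13 to 0.88 without scaling.

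The second block held miR-6243, miR-5109, miR-1224-5p and miR-5105, with r from 0.95 to 1.00 over 6 pairs, and from 0.93 to 1.00 without scaling. Their log2 signals were highest in control replicate 1. miR-6243 had 3.99, 3.71 and 3.51 in the control group, 3.75, 3.52 and 3.30 at the low dose, and 3.55, 3.61 and 3.54 at the high dose. miR-5109 had 3.83, 3.53 and 3.33, then 3.56, 3.34 and 3.14, and then 3.39, 3.44 and 3.41, in the same order of arrays. The profiles of these entries were nearly parallel, with r = 1.00 between them.

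The third block held miR-3473a, miR-3473b, miR-3473e, miR-5128 and miR-3474, with r from 0.93 to 1.00 over 10 pairs, and from 0.89 to 1.00 without scaling. The pair with the highest correlation of all members was miR-3474 with miR-5128 (r = 0.997), which share no seed. The second block and the third also correlated with each other, with r from 0.84 to 0.91, while the first and second did not move together, with r from -0.25 to 0.38. The lowest correlation of all was that of miR-3085-3p with miR-5130 (r = -0.93, and -0.37 without scaling), both dim with mean signals of 19.9 and 20.3 units.

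**Figure D3:**
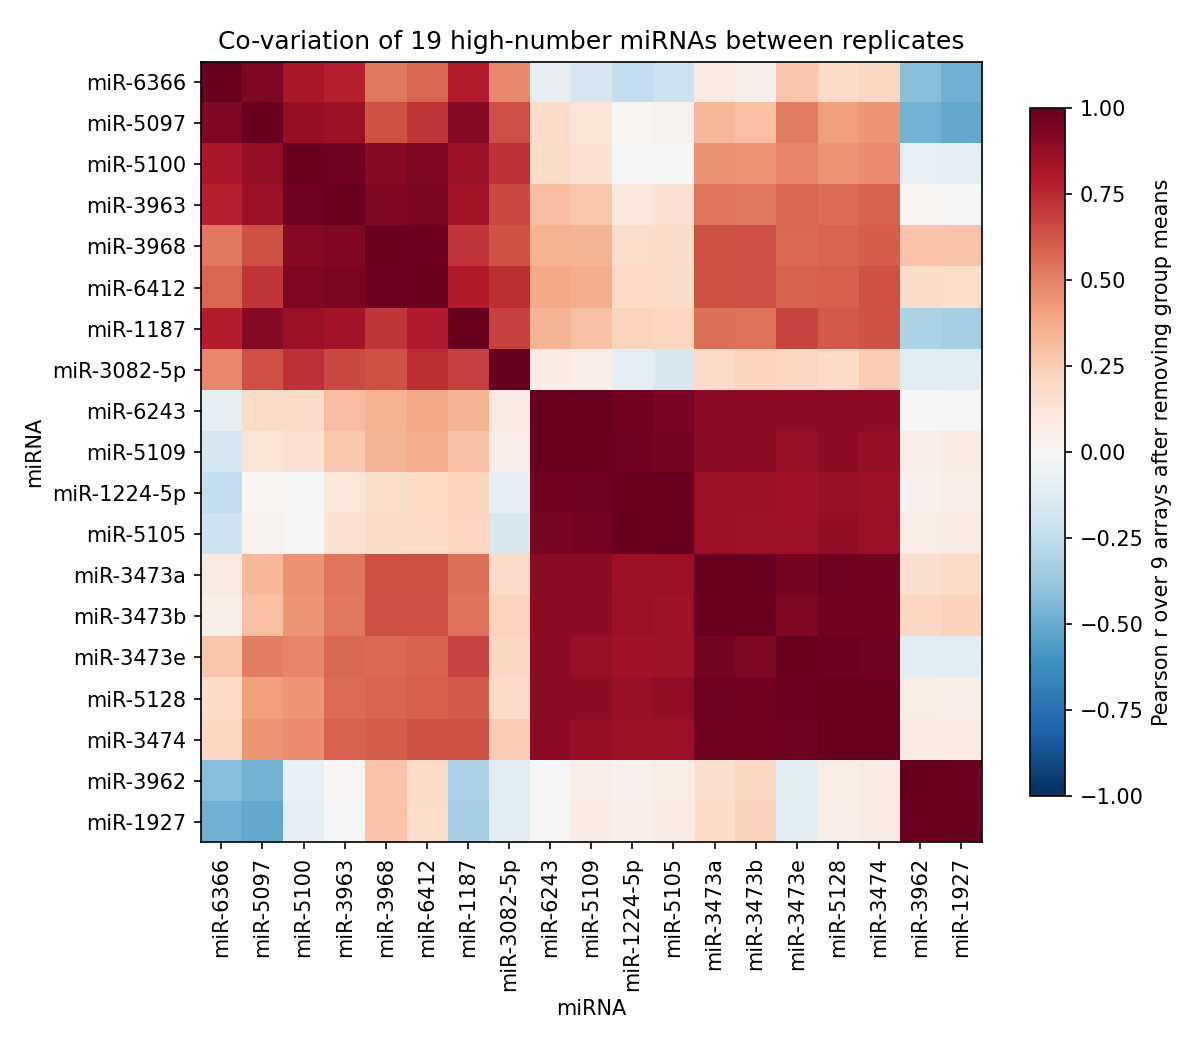
Pearson correlation over 9 arrays after removal of the group means (colour, -1 to 1) between 19 members (both axes), chosen as the 8 with the most signal and 11 picked after their values were seen. The first block at the upper left and the other blocks in the middle show high values, while values between the first and second blocks lie between -0.25 and 0.38.

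At the low dose, miR-5119 was higher than in the control group and 6 other members were lower by smaller amounts. Of the 87 members, 7 were at an unadjusted p under 0.05 (8.05%), near the 7.78% of all 424 tested miRNAs, and 6 of them were lower (6.90%), against 4.95% of all tested. After adjustment 1 member remained (1.15%), miR-5119, against 0.236% of all tested. The arrays of the 2 groups did not overlap in 3 members (3.45%), miR-5119, miR-3962 and miR-3107-5p, against 12.3% of all tested. An exact permutation test of 3 against 3 arrays cannot give a two-sided p below 0.1, which all 3 reached.

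miR-5119, which lies in the span of the kinase gene Cdk12 (chr11:98262638-98262656, plus strand), had log2 signals of -2.75, -3.10 and -2.93 in the control group. At the low dose it had -1.21, -1.83 and -1.68, and at the high dose -3.39, -3.24 and -3.29. All 3 arrays at the low dose were above all control arrays, and all 3 at the high dose were below them. The group means were -2.93 ± 0.17, -1.57 ± 0.32 and -3.30 ± 0.07 (SD, n = 3). At the low dose it changed by 1.35, or 2.56-fold (standard error 0.16 on the log2 scale, limma adjusted p = 0.00872), and at the high dose by -0.38 (standard error 0.16, limma adjusted p = 0.502). The difference between the doses was -1.73 (standard error 0.16, adjusted p = 0.00131 in limma). Of all 424 tested miRNAs, 3.77% differed between the doses at an unadjusted p under 0.05 and 0.236% at an adjusted p, and miR-5119 was the only member among either.

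The rise of miR-5119 was seen in each of its 3 probes, which read 12, 13 and 14 bases. The probe of 14 bases had 34.7, 36.1 and 32.5 units in the control group, 101.4, 80.4 and 91.4 at the low dose, and 22.8, 25.8 and 25.8 at the high dose. The log2 change was 1.35, 1.49 and 1.29 at the low dose and -0.11, -0.24 and -0.59 at the high dose, in the order of length. Within row 1 of slide 1 the array at the low dose was 1.72 above the mean of the control arrays, and within row 2 the high-dose arrays were 1.56 below those at the low dose. With the row as a block, the change at the low dose was 1.55 (adjusted p = 0.0110 in limma). That at the high dose was -0.19 (unadjusted p = 0.301 in limma), so the unadjusted call at the high dose was lost. High-dose replicate 3, in row 1 of slide 2, still lay below all control arrays (-3.29 against a lowest of -3.10). The call at the low dose held in 18 of 24 alternatives. It was lost without control replicate 2 (adjusted p = 0.0548 in limma) or replicate 3 (0.0632), with the 2 groups alone (0.0609), without moderation of the variance (0.0811), with normexp background correction (0.105) and in the deposited log2 table (0.119). The change was 0.47 with normexp, the lowest of the alternatives, and 1.93 in the deposited table, the highest.

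**Figure D4:**
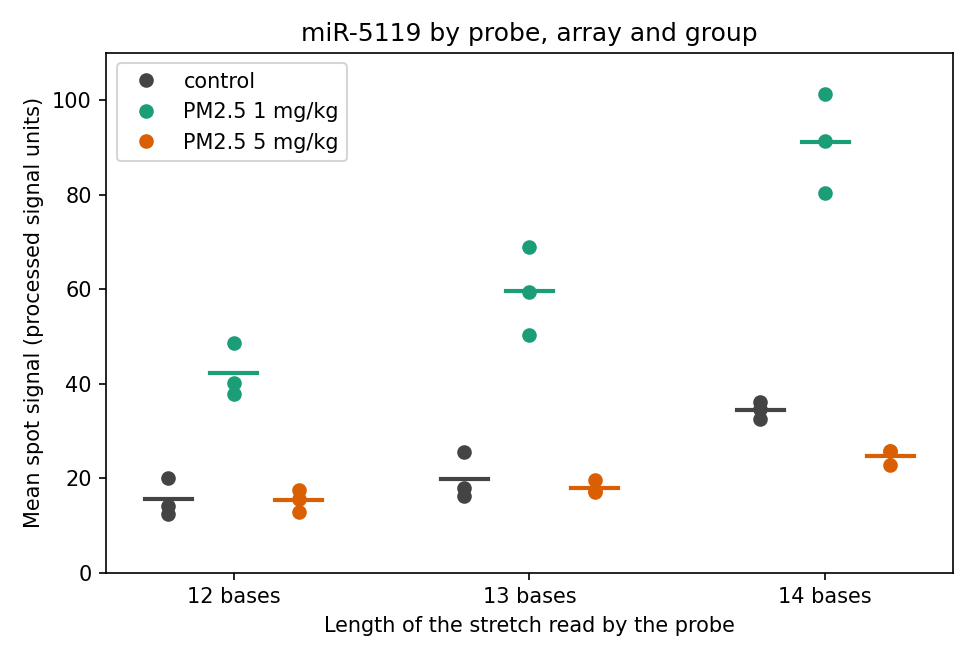
Mean spot signal of the 3 probes of miR-5119 in processed signal units (y axis, from 0), by the number of bases the probe reads (x axis), with 1 point per array and a line at each group mean (n = 3). In each probe the 3 arrays at the low dose lie above all others, between 37.8 and 101.4 units.

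The choroid plexus markers are given beside miR-5119 because a dissected hippocampus can carry this tissue. All 5 of the list were on the array, 3 of them detected on all 9 arrays (the others were miR-204-3p on 6 and miR-448-3p on 7). Their summed log2 level ran from 1.69 to 2.33 in the control group, from 2.47 to 3.16 at the low dose and from 1.58 to 2.52 at the high dose. This sum rests almost wholly on miR-204-5p, which ran from 1.57 to 2.23 in the control group and from 2.37 to 3.08 at the low dose. At the low dose miR-204-5p was 0.77 higher (unadjusted p = 0.0249 in limma) and miR-204-3p 1.08 higher (unadjusted p = 0.0156 in limma), neither of them past adjustment (0.538 for each). The other 3 did not pass an unadjusted p under 0.05, with changes of 1.26 for miR-448-3p, 0.43 for miR-211-5p and -0.05 for miR-211-3p. In bulk tissue, a different share of a cell type and a different level per cell cannot be told apart, and the part of this tissue in the result was not tested. Of the liver and muscle markers, miR-122-5p and miR-206-3p were detected on no array, and the summed level of the 4 ran from -2.40 to -1.45 over all groups.

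The members that were lower at the low dose at an unadjusted p were miR-3473b, miR-3473a, miR-3470a, miR-3962, miR-1187 and miR-5107-5p, with log2 changes from -0.43 to -0.21 and adjusted p-values from 0.512 to 0.543 in limma. miR-3473b had 1.80, 1.46 and 1.40 in the control group, 1.46, 1.05 and 0.88 at the low dose, and 1.19, 1.19 and 1.37 at the high dose. The control group overlapped with low-dose replicate 1, its neighbour in row 1, and did not overlap with the arrays of row 2. High-dose replicate 3, in row 1 of slide 2, also lay just below the lowest control array (1.37 against 1.40). miR-3473a, which shares 16 bases with miR-3473b, had -0.77, -1.11 and -1.19, then -1.05, -1.53 and -1.71, and then -1.36, -1.36 and -1.21. Here too high-dose replicate 3 was just below the lowest control array. With the row as a block the changes of miR-3473b and miR-3473a were -0.20 and -0.16 at the low dose (unadjusted p = 0.224 and 0.358 in limma).

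At the high dose, miR-3107-5p was higher and 8 members were lower, none of them at an adjusted p under 0.05. The 9 members at an unadjusted p under 0.05 in limma were 10.3% of the 87, near the 9.43% of all tested miRNAs, and the 8 that were lower were 9.20%, against 5.42% of all tested. At an adjusted p under 0.05 the number was 0 among the members and 0 of all 424 tested (0%). The groups did not overlap in 17 members (19.5%), against 16% of all tested.

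miR-3107-5p had log2 signals of -3.71, -3.46 and -3.52 in the control group, -3.44, -3.30 and -3.46 at the low dose, and -3.09, -3.27 and -3.22 at the high dose. All high-dose arrays were above all others. The change at the high dose was 0.37 (standard error 0.09, unadjusted p = 0.00321, adjusted p = 0.376 in limma), and it was 0.38 and 0.36 in the probes of 13 and 14 bases. With the row as a block it was 0.34 (unadjusted p = 0.0213 in limma). Of the blood markers, miR-451a, an erythrocyte miRNA, was 0.26 higher at the high dose (unadjusted p = 0.0344, adjusted p = 0.469 in limma). Of the 4 blood markers, looked up by name, 3 were on the array and miR-486-5p was not. miR-451a was detected on all 9 arrays, miR-144-3p on 8 and miR-144-5p on none. No mature sequence of miR-3107-5p was found in RefSeq. The letters its probes read were not compared with those of the blood markers, miR-486-5p included, so whether it reads one of them is not known here. The change of miR-144-3p was 0.40 (unadjusted p = 0.184 in limma), with overlap between the groups. Their summed log2 level ran from 1.54 to 1.89 in the control group, from 1.58 to 1.82 at the low dose and from 1.92 to 2.04 at the high dose, and it rests almost wholly on miR-451a. The part of blood in the result was not tested.

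miR-3962 was lower at both doses without overlap. It had -3.49, -3.63 and -3.57 in the control group, -3.83, -3.88 and -3.74 at the low dose, and -3.94, -3.82 and -3.73 at the high dose. The change was -0.25 (standard error 0.08, unadjusted p = 0.0121 in limma) and -0.26 (standard error 0.08, unadjusted p = 0.00974 in limma), neither of them past adjustment (0.512 and 0.376). The changes with the row as a block were -0.21 and -0.22 and no longer passed an unadjusted p under 0.05 (0.0687 and 0.0580 in limma). Without scaling they were -0.14 and -0.15 (unadjusted p = 0.318 and 0.298 in limma). let-7g-5p, whose letters it shares, changed by -0.12 and -0.09 (standard error 0.12 for each, unadjusted p = 0.344 and 0.435 in limma). From the total signal that the files give, the change of miR-3962 turned to 1.29 and 2.65 (unadjusted p = 0.332 and 0.0691 in limma).

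miR-3082-5p and miR-1187 are rich in GU repeats, and both were lower at the high dose. The letters GUGUGUGU occurred on the plus strand in 7 of the 1679 mature sequences (0.417%) and in 3 tested miRNAs, of which these are the members and the other is miR-574-5p. miR-3082-5p had -3.18, -3.33 and -3.06 in the control group, -3.40, -3.27 and -3.56 at the low dose, and -3.52, -3.58 and -3.49 at the high dose. The high-dose arrays lay below all control arrays, with a change of -0.34 (standard error 0.10, unadjusted p = 0.00746, adjusted p = 0.376 in limma), and -0.31 with the row as a block (unadjusted p = 0.0382 in limma). miR-1187 had -3.37, -3.36 and -3.21, then -3.37, -3.52 and -3.78, and then -3.58, -3.63 and -3.55, a change of -0.25 and -0.27 at the 2 doses (unadjusted p = 0.0486 and 0.0339 in limma). With the row as a block the changes of miR-1187 were -0.13 and -0.16 (unadjusted p = 0.293 and 0.221 in limma). miR-574-5p, the third miRNA with these letters, changed by -0.19 and -0.21 at the 2 doses (unadjusted p = 0.0602 and 0.0354 in limma). Neither passed adjustment (0.543 and 0.469). Among the 3 tested miRNAs with these letters, the lower signal was thus not confined to the late entries. All 3 hold the same run of letters, so their signals may not be independent. No value with the row as a block is given here for miR-574-5p.

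The remaining members at an unadjusted p under 0.05 at the high dose were miR-3058-5p (-0.32), miR-3470a (-0.32), miR-5107-5p (-0.22) and miR-1904 (-0.19), with adjusted p-values from 0.469 to 0.502 in limma. miR-3058-5p, which lies in the span of Nudt4, had -4.89, -5.28 and -5.05 in the control group, -5.03, -5.19 and -5.35 at the low dose, and -5.44, -5.47 and -5.28 at the high dose (standard error of the high-dose change 0.12, unadjusted p = 0.0278 in limma). miR-3470a had -2.25, -2.49 and -2.59, then -2.57, -2.77 and -2.90, and then -2.88, -2.77 and -2.64 (standard error of the high-dose change 0.12, unadjusted p = 0.0292 in limma). In all 4 the high-dose arrays lay below the control arrays. For miR-3058-5p the lowest control array (-5.2778) and the highest high-dose array (-5.2795) were almost level. With the row as a block the changes of these 4 miRNAs were between -0.18 and -0.12 (unadjusted p from 0.196 to 0.223 in limma). miR-3058-5p had a mean signal of 15.0 units, where the lowest detected signal of an array was between 5.99 and 8.10 units.

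**Figure D5:**
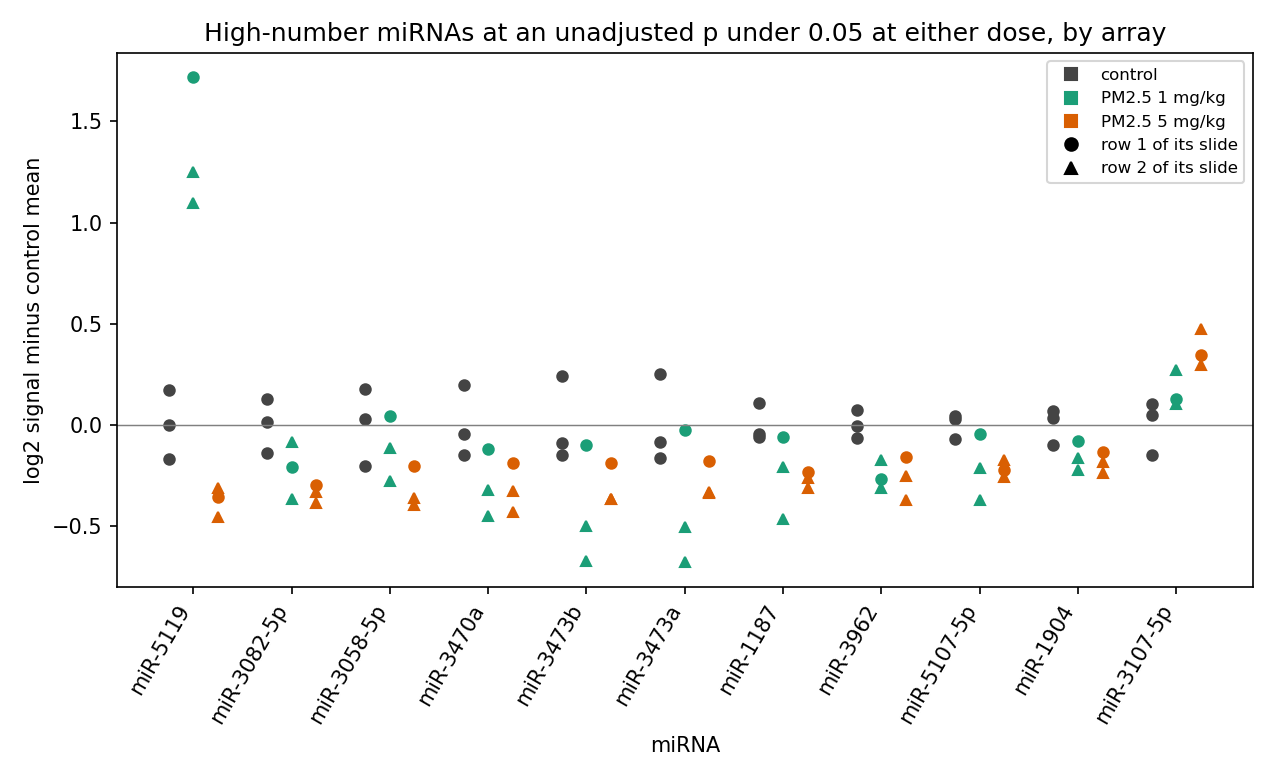
log2 signal minus the control mean (y axis) for the 11 members at an unadjusted p under 0.05 at either dose (x axis), with 1 point per array, coloured by group; circles lie in row 1 and triangles in row 2 of their slide. miR-5119 at the low dose lies more than 1 above the controls, and in miR-3473a and miR-3473b the row 2 triangles lie below the circle at the low dose.

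Over all members the changes were small and mostly downward. At the low dose 67 of 87 members had a log2 change below 0 (77.0%), against 188 of 337 others (55.8%), and the median was -0.09 over the members and -0.03 over all tested miRNAs. At the high dose these numbers were 59 of 87 (67.8%) and 158 of 337 (46.9%), with medians of -0.09 and 0.00. The direction depended on the scaling. From the total signal of each file, 5 members at the low dose and 9 at the high dose were at an unadjusted p under 0.05, all of them higher, and without scaling 2 and 3 were, all higher, with the median of all tested miRNAs then at 0.10 and 0.14, and at 0.08 and 0.11. Both comparisons use the same control arrays. Since the members co-vary, they are not independent counts. With 1 member left aside, miR-5119, the changes ran from -0.46 to 0.17 at the low dose and from -0.80 to 0.37 at the high dose.

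The downward shift went with the row of the slide. Relative to the control means, the median over the members was -0.16 to -0.09 in the 4 PM2.5 arrays of row 2, while it was 0.04 and -0.02 in the 2 PM2.5 arrays of row 1. In the low-dose array that lay in the row of the controls, 32 of 87 members were below the control mean. Over the other tested miRNAs the median stayed between -0.04 and 0.03 on all 9 arrays. The scale of an array is set by the miRNAs detected on all arrays, most of which are in this other set. Their median is therefore held near 0 in part by the scaling. With the row as a block, the medians of the members were 0.00 at the low dose and 0.03 at the high dose, and 1 and 4 members were at an unadjusted p under 0.05, in place of 7 and 9. The share of all tested miRNAs at the low dose also fell, from 7.78% to 1.89%. Row 1 of slide 1 held no high-dose array and row 2 held no control array, so the part of the row in the other changes was not tested beyond this block.

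Some members were at an unadjusted p under 0.05 in both comparisons, which share the 3 control arrays. miR-3962 changed by -0.25 at the low dose and -0.26 at the high dose, miR-3470a by -0.30 and -0.32, miR-1187 by -0.25 and -0.27, miR-5107-5p by -0.21 and -0.22, and miR-5119 by 1.35 and -0.38. Of these, miR-5119 alone was at an unadjusted p under 0.05 at the low dose with the row as a block, and none of them was at the high dose.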

How the data were processed

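Total RNA of 9 hippocampus samples was measured on 1-colour Agilent arrays. The authors extracted the scans with Feature Extraction 10.7 (named in the submitters' processing notes), and the deposited intensity values are background-subtracted but not normalized between arrays. The deposited log2 table has equal upper quartiles in its columns; its normalization is not given in the sources used here, and it served as an alternative. The methods name GeneSpring.

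Outlier spots (3.76% to 4.59% per array) were left out, spots were averaged per probe, probes were summed per miRNA, and the scale of an array was its 75th percentile of the 395 miRNAs with a detection call on every array (492 to 614 units). Values under the lowest detected signal were set to it before log2. limma 3.58.1 (R 4.3.3) fitted the 3 groups over the 424 tested miRNAs with Benjamini-Hochberg adjustment, after a test on simulated data. The pooled spread follows the least significant difference test of the methods. The array headers name mm9; coordinates and sequences are from RefSeq (GRCm38.p6), and of the 424 tested miRNAs those without an entry are named only. Exact tests used scipy 1.17.1.

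The members and lists were chosen with earlier results of these data known. Named are the 8 members with the highest and the 3 with the lowest control mean, those at an unadjusted p under 0.05 (up to 6 per comparison in full), arm pairs, those overlapping another RNA class, those not detected on all arrays, and the pairs with extreme correlations. Letters searched and blocks of co-variation were added after values were seen. With 3 arrays per group, the array number limits precision. No genome was used, and rRNA, tRNA and repeat sequences were not searched.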

Additional observations from a re-analysis of the deposited data

Results flagged for a closer look

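miR-5119 differed between the doses: its log2 signal at the high dose minus that at the low dose was -1.73 (adjusted p = 0.00131 in limma), and the arrays of these groups did not overlap. Over 24 alternatives the difference stayed between -2.19 and -0.63, and its adjusted p was under 0.05 in 23 of them, the exception being the deposited log2 table (0.0531).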

How the results depend on the processing

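At the low dose, the count of 7 members at an unadjusted p under 0.05 became 4 with normexp, with the 75th percentile of all miRNAs, in a test without moderation and with the slide as a block, 3 with the 2 groups alone, 2 without scaling and 1 with the row as a block. At the high dose the count of 9 became 3 with normexp or without scaling, 5 in the deposited log2 table, 15 with the 2 groups alone and 4 with the row as a block. At an adjusted p the 1 member at the low dose, miR-5119, became 0 with normexp, in the deposited table, with the 2 groups alone and without moderation. Without a filter on detection the count became 2, but 60.8% of all miRNAs then passed an adjusted p and their median change was -0.39. The 2 calls therefore say little about the members. Weak signals enter this fit at a floor, the value to which they were raised before log2. This floor was 7.76 to 8.10 units on the control arrays, and 6.12 and 5.99 units in low-dose replicates 2 and 3. The scale was 492 to 555 units on the control arrays, and 599 and 612 in those replicates. A miRNA at the floor throughout was therefore lower in these replicates than on any control array. The part of the floor in the calls was not tested. The median change of the members at the low and high dose became 0.064 and 0.091 when the total signal of each file was used, 0.017 and 0.029 without scaling, and -0.00012 and 0.026 with the row as a block. The median of all tested miRNAs moved to 0.10 and 0.14 with the total signal, and to 0.08 and 0.11 without scaling, and that of the members stayed below it in these. All calls of members were then upward, with 5 and 9 from the total signal and 2 and 3 without scaling. The change of miR-3962 reversed with the total signal (1.29 and 2.65).

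Leaving out 1 array gave 2 to 17 members at the low dose (2 without control replicate 1, 3 without low-dose replicate 3 or high-dose replicate 2, 4 without low-dose replicate 2 or without high-dose replicates 1 or 3, 13 without control replicate 3 and 17 without low-dose replicate 1) and 3 to 14 at the high dose (3 without replicates 1 or 2 of that group, 14 without low-dose replicate 1). The count at an adjusted p at the low dose ran from 0 to 1. The medians ran from -0.15 to -0.05 at the low dose and from -0.13 to -0.00297 at the high dose, the latter without control replicate 1.

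Arrays with the same replicate number had correlations of their deviations from -0.65 to 0.74, so the numbers do not mark pairs. With the replicate number as a block, 6 and 7 members were at an unadjusted p under 0.05 and 1 and 0 at an adjusted p. Of 1004 values of the 21 members named for level or change, 837 kept their direction and side of the threshold, 145 lost an unadjusted call, 20 gained one and 2 reversed. In the 5 members without a detection call on every array, values at the floor have no order.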
